A study of Mus musculus with 12 samples.

Results

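The genes described here are 8 genes of thyroid hormone signalling, namely the transporter gene Slco1c1, the deiodinase genes Dio2 and Dio3, the receptor genes Thra and Thrb, and the hormone target genes Hr, Klf9 and Thrsp, out of 19312 genes in the expression table. They were chosen by symbol as known components and targets of the pathway, with earlier results of these data known. Hr was on the list because its level was already known to be lower in memantine-treated Shank2 knockout mice. Hr is therefore described, and not tested, in every comparison that includes those mice. All 8 genes were found in the table, all had a mean above the minimum used for testing, and none was at 0 in any mouse.

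RNA-Seq was performed on brain tissue of 12 male C57BL/6N mice at postnatal day 25 (P25), with 3 mice in each of 4 groups. WT-Veh and WT-Mem were wild-type mice given vehicle (0.1% saccharin) or memantine, and KO-Veh and KO-Mem were mice homozygous for a constitutive deletion in Shank2 given the same agents. Memantine, a blocker of NMDA-type glutamate receptors, was dosed at 20 mg/kg by mouth, 2 doses a day from P7 to P21, and the brains were collected 4 days after the last dosing day. Shank2 encodes a scaffold protein of excitatory synapses. The tissue is labelled as brain, while the methods describe a forebrain from which the cerebellum and adjoining brain stem had been removed. In whole tissue, fewer cells of a type and less RNA per cell cannot be told apart.

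Thyroid hormone reaches the brain mainly as thyroxine (T4), which crosses brain capillaries and astrocyte membranes through transporters. Astrocytes and tanycytes convert T4 to the active form, T3, with type 2 deiodinase, and neurons inactivate both forms with type 3 deiodinase. T3 binds nuclear receptors that sit on DNA with or without hormone and change the transcription of their targets, and in the developing rodent brain the hormone is known for its part in myelination, neuronal maturation and the timing of critical periods.

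A feature of 2 of the proteins is visible in their coding sequences. Deiodinases carry the amino acid selenocysteine in their catalytic centre, which is encoded by TGA, a codon that ends translation in most genes. The stretches around the catalytic codon of both deiodinases are shown because they identify the enzymes by their shared chemistry, with the TGA in capitals. In GENCODE M21 on GRCm38, Dio2 codon 130 lies in 1 exon on the minus strand at chr12:90729808-90729840, and Dio3 codon 170 on the plus strand at chr12:110279724-110279756.
Dio2: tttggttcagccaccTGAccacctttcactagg
Dio3: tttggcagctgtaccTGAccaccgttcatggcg
Dio2 holds a second in-frame TGA at codon 263 of 266, and Dio3 holds only the 1 among its 304 codons.

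Thra encodes receptor forms that differ at their 3' end. The transcript Thra-202 has 410 codons and encodes the hormone-binding form α1, whereas Thra-201 has 492 codons and encodes α2, a form that does not bind T3. Both share their first 370 codons. The point where they part is shown because the values per gene add up both forms, so that nothing below tells them apart. Capitals mark the last shared coding bases.
Thra-201: TGCTGATGAAGGagagagaagtgc
Thra-202: TGCTGATGAAGGtgactgacctcc
The Thra-202 stretch lies on the plus strand at chr11:98764395-98764418, and the part of Thra-201 in lower case at chr11:98768158-98768169. The coding part of Thra-201 runs into the gene Nr1d1, which is read from the opposite strand. The exons of both genes share 263 bases, which are 5.70% of the exonic length of Thra and 8.55% of that of Nr1d1. The methods do not say whether the libraries mark strand. Thra-202 shares no base with Nr1d1.

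Thyroid hormone receptors bind DNA at copies of the half-site AGGTCA. This motif was searched on both strands (as AGGTCA or TGACCT) in windows of 300 bases, 250 before to 50 after the RefSeq gene start on GRCm38.p6. Windows were at hand for 6 of the 8 genes, 7 windows in all, and 1 of them held the motif, against 16.3% of 32851 windows. It lies 184 bases before 1 of the RefSeq starts of Thrb, and the window of another Thrb start (chr14:17981394-17981693) held no match. The stretch at chr14:17660767-17660790 is within the span of Thrb in GENCODE M21 (17660261 to 18038090), and is shown with the motif in capitals.
Thrb: agagttgacAGGTCAagggaatag

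The values are normalized read counts, that is estimated reads per gene divided by the authors' normalization factors. Levels between genes are compared per kilobase of exon. By that measure Thra was the highest of the 8, with a mean of 5632 normalized reads per kb over the 12 mice. Klf9, a transcription factor gene raised by T3, came next with 1247. Dio2 followed with 392, Slco1c1 with 282, Hr with 233, Thrb with 163, Thrsp with 159 and Dio3 with 37.0. The levels per kb of Thrb and Thrsp overlapped between mice (139 to 195 and 124 to 199), while those of Thra, Klf9 and Dio3 overlapped with no other gene of the 8.

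As a check of the tissue, 6 neuron markers summed to 147498 to 172712 normalized counts in the 12 mice and 7 astrocyte markers to 106595 to 122328. As a check of the labels, the targeted gene Shank2 was at 7156 to 8548 normalized counts in the 6 wild types and 2706 to 3178 in the 6 knockouts. On the log2 scale it was lower by -1.45 (SE 0.07) in KO-Veh and by -1.44 (SE 0.08) in KO-Mem than in wild types of the same treatment. Relative library depth was only estimated, by taking the median of the smallest values of each mouse as 1 read, at 0.89 to 1.15. Only 26.4% of values under 20 were whole multiples of that unit, so this estimate is uncertain. Summed markers of cerebellar granule cells (Gabra6, Cbln3 and Barhl1) were at 1055 in KO-Veh mouse 3 and at 28.4 to 127 in the other 11 mice. KO-Mem mouse 1 had the highest level of the glucocorticoid-responsive gene Fkbp5, at 3313 against 888 to 2268 elsewhere. Results that lead the account below are therefore also given without these 2 mice, a choice made after seeing the data.

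Differences between genotypes were tested within vehicle (Veh-K/W), within memantine (Mem-K/W) and over both treatments (6 wild types and 6 knockouts, each treatment weighted equally). They are given as KO minus WT on the log2(value + 1) scale, tested with limma over all genes and called at an adjusted p under 0.05. Over both treatments Thra rose and Thrsp fell in knockouts, and the other 5 tested members did not pass. That is 2 of 7 members, where 10.5% of all 17655 genes were called. In Veh-K/W 0 of 8 members passed limma (3 had an unadjusted p under 0.05), where 0.0283% of genes were called and 14.4% had an unadjusted p under 0.05. In Mem-K/W 0 of 7 passed (4 had an unadjusted p under 0.05), where 0.068% were called and 21% had an unadjusted p under 0.05. Without KO-Veh mouse 3 and KO-Mem mouse 1, 0 of the 7 passed over both treatments, and over all genes the number called went from 1856 to 85.

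**Figure D1:**
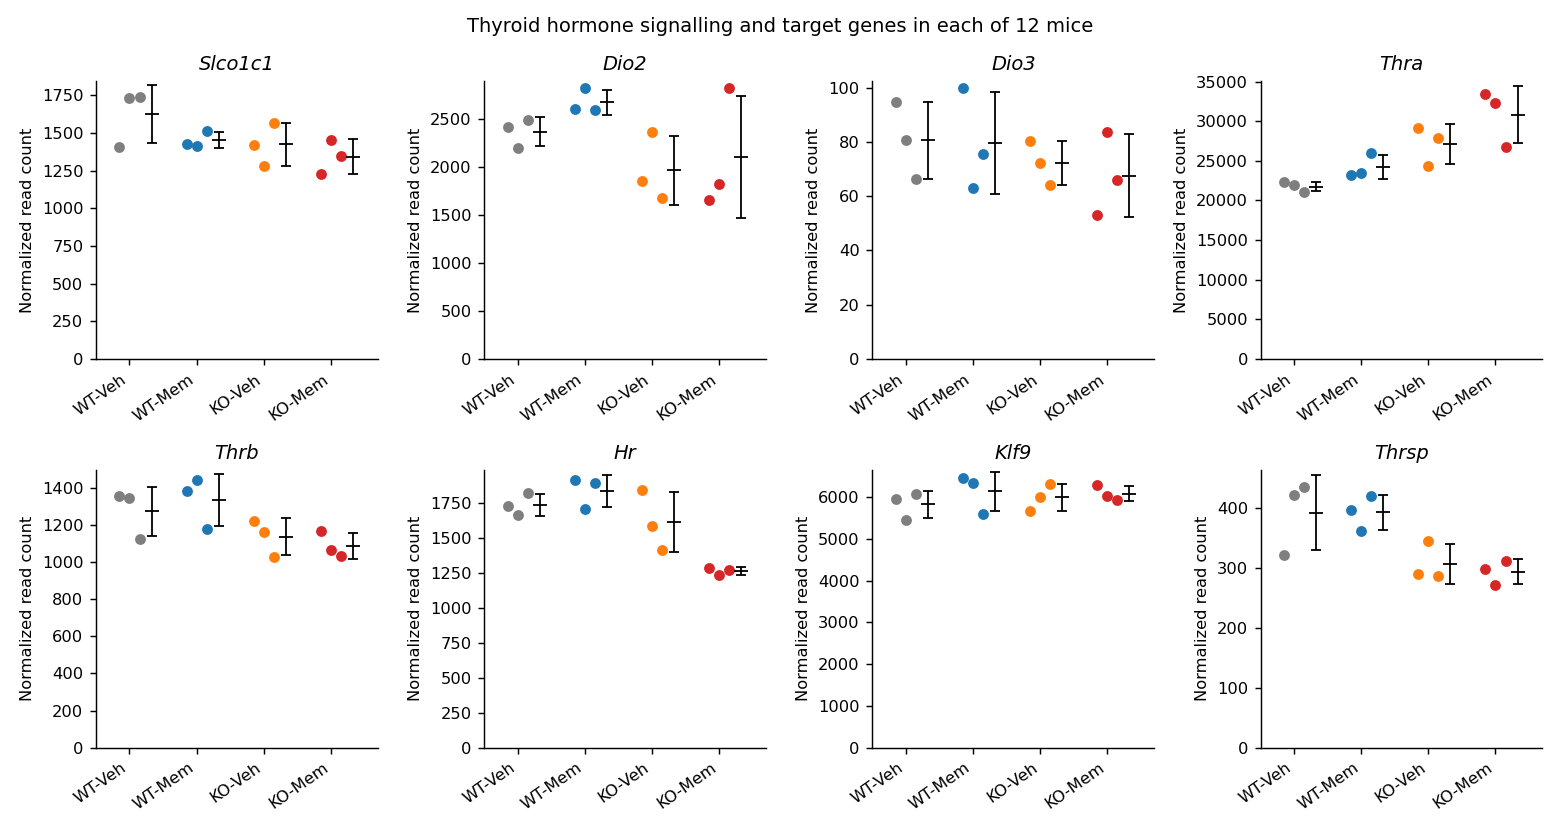
Normalized read counts (vertical axes, from 0) of the 8 genes in each mouse (points, 3 per group), with the group mean ± SD at the right of each group. Thra was between 21052 and 25992 in wild types and between 24280 and 33465 in knockouts, Hr was between 1230 and 1285 in KO-Mem mice and at least 1412 in every other mouse, and Klf9 overlapped between all groups.

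Slco1c1 (chromosome 6, 141524368 to 141570177, plus strand) encodes a T4 transporter of brain capillaries and astrocytes. Its counts were 1406, 1734 and 1737 with vehicle and 1427, 1416 and 1516 with memantine in wild types, and 1422, 1283 and 1568 with vehicle and 1228, 1456 and 1349 with memantine in knockouts. The groups overlapped, with 2 WT-Veh mice above all others. Over both treatments the difference was -0.15 (SE 0.07, adjusted p = 0.160), and it did not pass the test.

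Dio2 (chromosome 12, 90724552 to 90738438, minus strand) encodes the type 2 deiodinase, which makes T3. It was at 2416, 2200 and 2496 in WT-Veh mice and at 2607, 2826 and 2594 in WT-Mem mice. The knockouts spread more widely, with 1856, 2367 and 1676 after vehicle and 1654, 1828 and 2830 after memantine. Thus 4 knockouts lay below all 6 wild types, KO-Veh mouse 2 lay among them, and KO-Mem mouse 3 had the highest count of all 12 mice. The mean was 2523 ± 210 (SD, n = 6) in wild types and 2035 ± 467 (SD, n = 6) in knockouts. The difference over both treatments was -0.33 (SE 0.11, adjusted p = 0.0712) and did not pass the test. Whether it passed depended on single knockouts. The difference was -0.45 (adjusted p = 0.0025) without KO-Mem mouse 3, in a fit that called 3263 of 17645 genes instead of 1856 of 17655. It was -0.41 (adjusted p = 0.0376) without KO-Veh mouse 2, where 1790 genes were called. Without KO-Veh mouse 3 and KO-Mem mouse 1 it was -0.20 (adjusted p = 0.346), where 85 genes were called. Dio2 shares 100 exonic bases with Gm26512 on the opposite strand, which was at 22.0 to 53.7 counts in the 12 mice.

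Dio3 (chromosome 12, 110279068 to 110281097, plus strand) encodes the type 3 deiodinase, which inactivates T4 and T3. It was the lowest of the 8 genes, at 94.9, 80.7 and 66.5 with vehicle and 100, 62.9 and 75.7 with memantine in wild types, and 80.4, 72.2 and 64.2 with vehicle and 53.1, 83.5 and 65.9 with memantine in knockouts. All 4 groups overlapped, and the genotype difference was -0.19 (SE 0.16, adjusted p = 0.437). Dio3os, a transcript from the opposite strand of the same locus that shares no exonic base with Dio3, was at 3.02 to 17.2 counts and did not differ beyond its spread (0.01, SE 0.37, adjusted p = 0.986). The ratio of Dio2 to Dio3 counts was 25.5 to 37.5 in WT-Veh, 26.0 to 44.9 in WT-Mem, 23.1 to 32.8 in KO-Veh and 21.9 to 42.9 in KO-Mem mice, so that the balance of the activating and the inactivating enzyme transcript overlapped between groups.

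Thra (chromosome 11, 98740638 to 98769006, plus strand) encodes thyroid hormone receptor α, the predominant receptor of neurons. Its counts were 22261, 21943 and 21052 in WT-Veh mice and 23242, 23490 and 25992 in WT-Mem mice. They were 29191, 24280 and 27841 in KO-Veh mice and 33465, 32262 and 26789 in KO-Mem mice. Within each treatment every knockout was above every wild type, a pattern that 3.36% of all genes showed in this direction. The mean was 22997 ± 1715 (SD, n = 6) in wild types and 28971 ± 3439 (SD, n = 6) in knockouts. The difference was 0.33 (SE 0.06, adjusted p = 0.00996) over both treatments, 0.31 (SE 0.08, adjusted p = 0.159) in Veh-K/W and 0.34 (SE 0.09, adjusted p = 0.0957) in Mem-K/W. It was called over both treatments whichever 1 mouse was left out (0.30 to 0.38, adjusted p = 0.000831 to 0.0341), and without KO-Veh mouse 3 and KO-Mem mouse 1 it was 0.29 (SE 0.07, adjusted p = 0.0756). An exact 2-sided permutation test of genotype within treatments gave p = 0.005, the smallest that these 12 mice allow. This test was run on 7 members, and beside Thra and Thrsp (p = 0.01) the exact p was 0.025 for Thrb, 0.06 for Dio2, 0.075 for Slco1c1, 0.25 for Dio3 and 0.745 for Klf9, none adjusted for the number of members.

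Since the methods do not say whether the libraries mark strand, Thra was set beside Nr1d1, the gene of a haem-binding clock repressor on its opposite strand. Nr1d1 was at 2757, 2561 and 2939 with vehicle and 3186, 2734 and 3063 with memantine in wild types, and 2998, 2963 and 3092 with vehicle and 4338, 3496 and 3156 with memantine in knockouts. KO-Mem mouse 1 was highest for both Nr1d1 and Thra. The genotype difference of Nr1d1 was 0.21 (SE 0.07, adjusted p = 0.0687). Nr1d1 counts were a small part of the sum of both genes, in which Thra made up 87.7% to 90.7%, and the share of reads from the common 263 bases that were assigned to either gene was not tested.

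Thrb (chromosome 14, 17660261 to 18038090, plus strand) encodes receptor β, which mediates the feedback of the hormone in hypothalamus and pituitary. It was at 1356, 1348 and 1123 with vehicle and 1384, 1446 and 1179 with memantine in wild types, and 1222, 1166 and 1030 with vehicle and 1168, 1066 and 1033 with memantine in knockouts. Knockouts were mostly lower, and all 3 KO-Mem mice lay below all 3 WT-Mem mice, as did 13.5% of genes, whereas KO-Veh and WT-Veh mice overlapped. The difference was -0.16 (SE 0.10, adjusted p = 0.464) in Veh-K/W, -0.29 (SE 0.10, adjusted p = 0.141) in Mem-K/W and -0.23 (SE 0.07, adjusted p = 0.0550) over both treatments. It did not pass the test as fitted, and it lay close to the threshold. It was called when only genes with a mean of at least 50 were tested (adjusted p = 0.0492), and without WT-Veh mouse 3 (0.0358) or WT-Mem mouse 3 (0.0374). It was also called with the replicate block (0.0214), a term for the replicate numbers of the labels, which did not pair the mice. Without KO-Veh mouse 3 and KO-Mem mouse 1 the adjusted p was 0.168, and with no variance trend 0.101.

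As Thra rose and Thrb had lower values in knockouts, the ratio of Thra to Thrb counts was set side by side. It was 16.4, 16.3 and 18.7 with vehicle and 16.8, 16.2 and 22.0 with memantine in wild types, and 23.9, 20.8 and 27.0 with vehicle and 28.6, 30.3 and 25.9 with memantine in knockouts. Within each treatment all knockouts were above all wild types. The ratio was formed after both genes had been seen and was not tested.

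**Figure D2:**
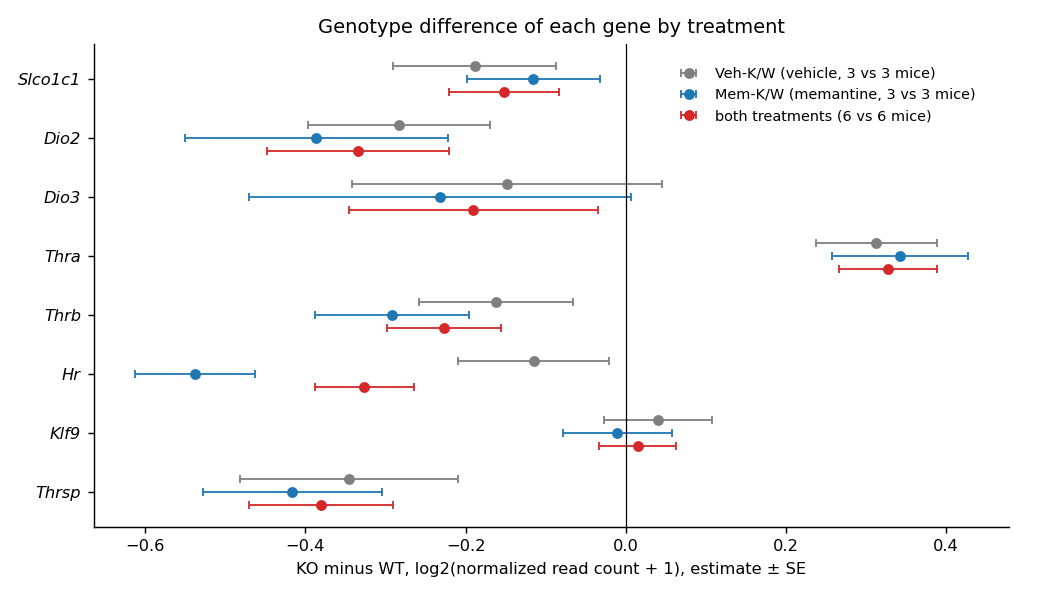
KO minus WT difference of each gene on the log2(normalized read count + 1) scale (horizontal axis, limma estimate ± SE) within vehicle, within memantine and over both treatments. Thra lies at 0.31 to 0.34 in the 3 comparisons, Thrsp at -0.42 to -0.35, and the Hr estimates that include memantine-treated knockouts are a description, since that level chose the gene.

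Hr (chromosome 14, 70552212 to 70573548, plus strand) encodes the hairless corepressor, which binds thyroid hormone receptors and is itself raised directly by T3 in brain. It was at 1727, 1660 and 1819 with vehicle and 1910, 1702 and 1891 with memantine in wild types, and 1837, 1581 and 1412 with vehicle and 1285, 1230 and 1270 with memantine in knockouts. In order of their means the groups were WT-Mem (1834 ± 115), WT-Veh (1735 ± 79.8), KO-Veh (1610 ± 214) and KO-Mem (1262 ± 28.7; SD, n = 3 each). The first 3 overlapped, and the KO-Mem mice lay below all 9 others. The differences with KO-Mem mice, which the choice of the gene fixed, were -0.54 (SE 0.08) in Mem-K/W, -0.34 (SE 0.09) against KO-Veh and -0.46 (SE 0.07) against WT-Veh mice. In the comparisons without these mice Hr did not pass the test, with -0.12 (SE 0.09, adjusted p = 0.595) in Veh-K/W and 0.08 (SE 0.08, adjusted p = 0.978) between WT-Mem and WT-Veh. Without KO-Veh mouse 3, the lowest of its group, the Veh-K/W difference was -0.02 (SE 0.09), and without KO-Mem mouse 1 that of Mem-K/W was -0.55.

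Klf9 (chromosome 19, 23141226 to 23168134, plus strand), a direct T3 target that also responds to glucocorticoids, was the steadiest of the 8, with a coefficient of variation of 5.24% over the 12 mice. It ranged from 5451 to 6066 in WT-Veh, 5602 to 6456 in WT-Mem, 5653 to 6306 in KO-Veh and 5936 to 6289 in KO-Mem mice, and all groups overlapped. The difference was 0.04 (SE 0.07, adjusted p = 0.813) in Veh-K/W, -0.01 (SE 0.07, adjusted p = 0.946) in Mem-K/W and 0.02 (SE 0.05, adjusted p = 0.865) over both treatments.

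Thrsp (chromosome 7, 97412938 to 97417730, minus strand), also called Spot 14, is a T3-responsive gene of fatty acid synthesis. It was at 321, 422 and 436 in WT-Veh mice and at 397, 362 and 420 in WT-Mem mice. The knockouts had 291, 346 and 286 with vehicle and 298, 272 and 312 with memantine. Apart from WT-Veh mouse 1, every wild type was above every knockout. The mean was 393 ± 43.6 (SD, n = 6) in wild types and 301 ± 25.7 (SD, n = 6) in knockouts, and the difference over both treatments was -0.38 (SE 0.09, adjusted p = 0.0218). It was -0.35 (SE 0.14, adjusted p = 0.296) in Veh-K/W and -0.42 (SE 0.11, adjusted p = 0.106) in Mem-K/W, and an exact 2-sided permutation test of genotype within treatments gave p = 0.01. The call over both treatments was lost when WT-Veh mouse 2, KO-Veh mouse 1, KO-Veh mouse 3 or KO-Mem mouse 2 was left out (adjusted p = 0.0503 to 0.0628), and without KO-Veh mouse 3 and KO-Mem mouse 1 it was -0.36 (SE 0.10, adjusted p = 0.117).

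Whether the genotype difference itself changed with memantine was tested as an interaction, and 0 of 7 members (Hr left out) passed limma or had an unadjusted p under 0.05, where 0% of genes passed and 4.76% had an unadjusted p under 0.05. For Thra the interaction was 0.03 (SE 0.12) and for Thrsp -0.07 (SE 0.18).

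The effect of memantine within a genotype was compared next. Between KO-Mem and KO-Veh mice 0 of 7 members passed limma, where 0% of 17707 genes were called, and none of the 7 had an unadjusted p under 0.05, which 8.88% of genes had. Thra was 0.18 higher (SE 0.09, adjusted p = 0.572), with KO-Mem mice at 26789 to 33465 and KO-Veh mice at 24280 to 29191. Between WT-Mem and WT-Veh mice 0 of 8 members passed, where 0.0114% of genes were called, and 2 had an unadjusted p under 0.05, which 3.97% of genes had. These were Thra with 0.16 (SE 0.07, unadjusted p = 0.0472, adjusted p = 0.978) and Dio2 with 0.18 (SE 0.07, unadjusted p = 0.0397, adjusted p = 0.978). For both genes all 3 WT-Mem mice lay above all 3 WT-Veh mice, as 4.15% of genes did. Over both genotypes 0 of 7 members passed, where 0% of genes were called, and 8.68% had an unadjusted p under 0.05. Among the 7 members Thra alone did, with a memantine difference of 0.17 (SE 0.06, limma adjusted p = 0.472).

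KO-Mem mice were also set against WT-Veh mice, which serve as the controls of the Veh-K/W and WT-Mem comparisons too. In this comparison 1 of 7 members was called, where 3.37% of 17662 genes were. Thra was 0.50 higher in KO-Mem mice (SE 0.09, adjusted p = 0.0276), with a lowest KO-Mem value of 26789 and a highest WT-Veh value of 22261. The call was lost when any mouse other than KO-Mem mouse 3 was left out (0.43 to 0.51, adjusted p = 0.0571 to 0.135). Between WT-Mem and KO-Veh mice 0 of 8 members passed, where 0.0227% of genes were called. The widest differences there were those of Dio2 (0.46 higher in WT-Mem, SE 0.11, adjusted p = 0.434) and Thrsp (0.36 higher, SE 0.11, adjusted p = 0.464).

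Genes that T3 is known to raise or lower in rodent brain formed 2 further lists. These and the other gene lists below were chosen with earlier results of these data known. Their counts of called genes are therefore descriptions and not independent of these data. Of 15 genes raised by T3, 4 fell in knockouts over both treatments and none rose, where 5.73% of all genes fell. They were Sema7a, a guidance molecule of axons, Nefm and Nefh, which encode neurofilament subunits, and Nrgn, a calmodulin-binding protein of dendrites. The median difference of the list was -0.17, against 0.00 over all genes. Sema7a had the largest fall of these, from 4388 ± 286 to 3221 ± 449 (SD, n = 6 each), or -0.46 (SE 0.07, adjusted p = 0.00615), with every knockout at 3760 or below and every wild type at 4095 or above, as for 2.2% of genes in this direction. Nefm fell from 9695 ± 748 to 7235 ± 942 (-0.43, SE 0.07, adjusted p = 0.0065), and Nrgn from 27766 ± 2279 to 21290 ± 2579 (-0.39, SE 0.07, adjusted p = 0.0110). In Veh-K/W and in Mem-K/W 0 of the 15 genes passed limma, and 7 and 6 of them had a lower level at an unadjusted p under 0.05, as 7.68% and 10.8% of all genes did. Over both treatments Nefh fell by 0.39 (SE 0.08, adjusted p = 0.0122) on the log2 scale. The median memantine difference of the 15 genes was -0.19 between KO-Mem and KO-Veh mice and -0.08 between WT-Mem and WT-Veh mice. In both of these comparisons 0 of the 15 were called.

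**Figure D3:**
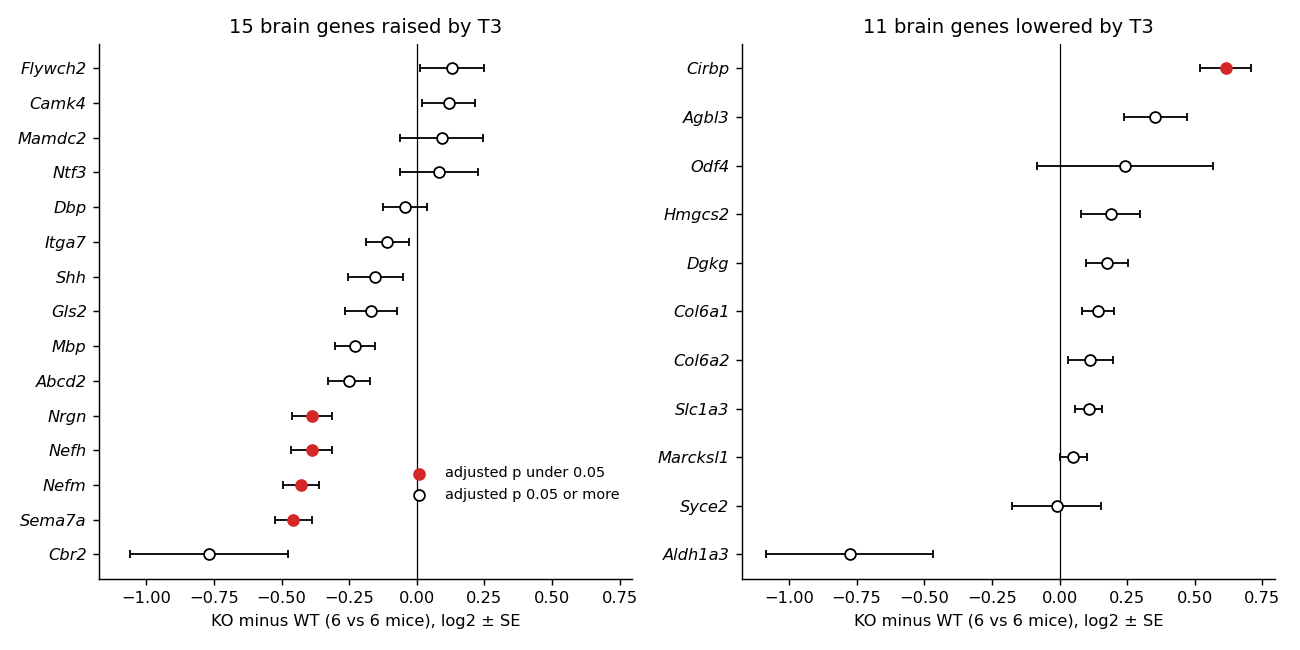
KO minus WT difference over both treatments (horizontal axis, log2 scale, limma estimate ± SE, 6 and 6 mice) for 15 brain genes raised by T3 (left) and 11 lowered by T3 (right), with filled points at an adjusted p under 0.05. The 4 filled points on the left lie between -0.46 and -0.39, and the 1 on the right, Cirbp, lies at 0.61.

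Without KO-Veh mouse 3 and KO-Mem mouse 1, 2 of the 4 genes were still called, Sema7a with -0.37 (adjusted p = 0.0267) and Nefm with -0.34 (adjusted p = 0.0334). That fit called 85 of 17613 genes, 64 of them lower. With all mice, the KO-Mem and WT-Veh comparison called all 4 of these genes, from -0.45 for Nrgn to -0.65 for Sema7a. It called 595 of 17662 genes, 362 of them lower. Its mice also enter the difference over both treatments that picked the 4 genes, so it adds no separate evidence. Over both treatments, 8 of the 15 genes were called lower without KO-Mem mouse 3, where the share of all genes called lower was 9.84% instead of 5.73%, and 4 to 6 without any other single mouse. Markers of myelinating cells were also lower in knockouts. Of 6 oligodendrocyte markers 5 fell in knockouts (Cnp, Mobp, Mag, Cldn11 and Mog, -0.39 to -0.22), where 5.73% of all genes fell. The sum of the 6 was 82563 to 107299 in wild types and 64471 to 86280 in knockouts. All 6 were also lower in KO-Mem than in KO-Veh mice at an unadjusted p under 0.05 (limma), which 8.88% of genes had in either direction, and 0 were called. Mbp, a myelin gene of the T3 list, was at 121242 to 181570 in wild types and 108062 to 126982 in knockouts and did not pass, and the part of these cells in its values was not tested.

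Of 11 genes lowered by T3 in brain, 1 rose in knockouts, where 4.79% of all genes rose, and the median difference was 0.14. This was Cirbp, which encodes a cold-inducible RNA-binding protein. It was at 1427, 1193 and 1427 with vehicle and 1268, 1394 and 1644 with memantine in wild types, and 1715, 1889 and 2148 with vehicle and 2861, 2315 and 1968 with memantine in knockouts. Every knockout was thus above every wild type, as for 1.86% of genes. The difference was 0.61 (SE 0.09, adjusted p = 0.0065), and without KO-Veh mouse 3 and KO-Mem mouse 1 it was 0.50 (SE 0.09, adjusted p = 0.0385). Without WT-Veh mouse 3 or KO-Veh mouse 2 the list had 2 genes called higher, and without KO-Mem mouse 3 it had 3, where 8.65% of all genes rose. With all mice the others did not pass, among them Agbl3 with 0.35 (SE 0.12, adjusted p = 0.0648) and Aldh1a3, the only one with an unadjusted p under 0.05 for a lower level (-0.78, SE 0.31, adjusted p = 0.114), at 7.0 to 61.1 counts in the 12 mice.

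In the hypothalamic-pituitary-thyroid axis 2 of 6 genes were called over both treatments, where 10.5% of all genes were. Tshb, the β subunit of thyrotropin, was at 77.1, 100.2 and 57.6 with vehicle and 57.8, 56.3 and 62.3 with memantine in wild types, and 34.3, 43.3 and 56.2 with vehicle and 26.2, 21.8 and 50.8 with memantine in knockouts. Every knockout was below every wild type, as for 2.2% of genes, though by a narrow margin (56.2 and 56.3), and the fall was -0.85 (SE 0.21, adjusted p = 0.0261). Trhr, a receptor for thyrotropin-releasing hormone that many brain neurons carry, was at 134 to 177 in wild types and 181 to 251 in knockouts and rose by 0.41 (SE 0.10, adjusted p = 0.0236). Trh, the releasing hormone itself, was at 165 to 294 and did not pass. Both calls depended on single mice (adjusted p = 0.0509 to 0.0672). That of Tshb was lost without WT-Veh mouse 2, WT-Mem mouse 1 or 3, KO-Veh mouse 1, or KO-Mem mouse 1 or 2, and that of Trhr without WT-Veh mouse 2, WT-Mem mouse 1, KO-Veh mouse 1 or 3, or KO-Mem mouse 2. Without both KO-Veh mouse 3 and KO-Mem mouse 1, Tshb was at -0.88 (adjusted p = 0.098) and Trhr at 0.44 (adjusted p = 0.0756). Tshb is made in the pituitary, including the part attached to the brain stalk, and of the pituitary markers only Pomc, which hypothalamic neurons also express, was measured, at 32.9 to 60.9. The amount of pituitary tissue in each sample was not tested.

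**Figure D4:**
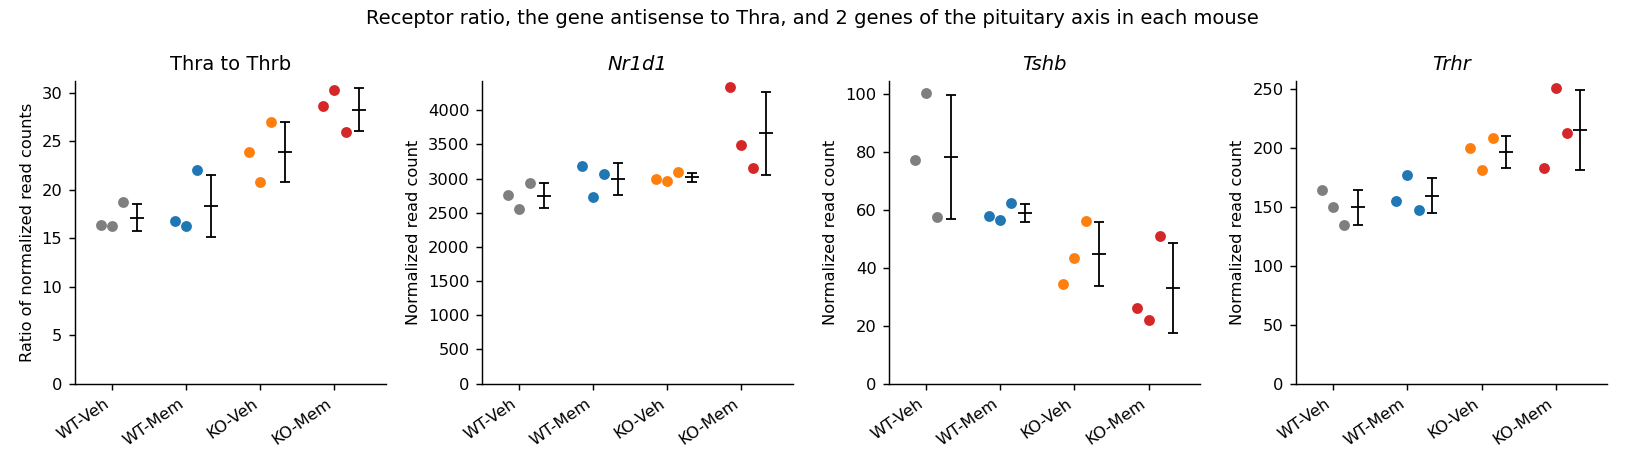
The ratio of Thra to Thrb counts and the normalized read counts of Nr1d1, Tshb and Trhr (vertical axes, from 0) in each mouse (points, 3 per group), with mean ± SD at the right of each group. The ratio was 16.2 to 22.0 in wild types and 20.8 to 30.3 in knockouts, Tshb was at most 56.2 in knockouts and at least 56.3 in wild types, and Trhr was at least 181 in knockouts and at most 177 in wild types.

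Among 14 retinoid X receptor partners and coregulators of the receptors, 3 rose in knockouts and none fell, where 4.79% of all genes rose and 5.73% fell, and the median difference was 0.08. Ep300, a histone acetyltransferase, rose by 0.27 (SE 0.07, adjusted p = 0.0336), with 2715 to 3439 in wild types and 3185 to 4052 in knockouts. Ncor1, the corepressor that binds receptors without hormone, rose by 0.17 (SE 0.05, adjusted p = 0.0456), and Tbl1x, a subunit of the same complex, by 0.18 (SE 0.05, adjusted p = 0.0467). All 3 lay near the threshold, each was lost when 1 mouse was left out for 8 (Ep300), 10 (Ncor1) and 9 (Tbl1x) of the 12 mice, among them KO-Veh mice 1 and 3 and KO-Mem mice 1 and 2 for all 3 genes (adjusted p = 0.0515 to 0.117), and none was called without KO-Veh mouse 3 and KO-Mem mouse 1 (adjusted p = 0.198 to 0.238).

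Other hormone transporters and binding or catabolic genes did not pass. Of 5 tested transporters other than Slco1c1 none was called over both treatments, and the smallest p was that of Slc16a10, with 0.40 (SE 0.19, adjusted p = 0.185) and counts of 43.9 to 121. Of 4 binding or catabolic genes none was called, and Sult1a1, a sulfotransferase, had the smallest p (0.44, SE 0.19, adjusted p = 0.133).

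Markers of other cell types and 1 stress-responsive gene, Fkbp5, moved with genotype beside these results. For comparison, 5.73% of all genes were called lower in knockouts over both treatments and 4.79% were called higher. Of 8 endothelial markers 5 fell in knockouts (Pecam1, Flt1, Cdh5, Cldn5 and Ly6c1), and the sum was 10128 to 11014 in wild types and 9127 to 9769 in knockouts. Of 7 astrocyte markers 2 fell (Aqp4 and Gja1), and the sum was 109922 to 122328 and 106595 to 117470. Another 1 of the 7 was higher in knockouts at an unadjusted p under 0.05 (limma), which 5190 of 17655 genes had in either direction. Slco1c1 and Dio2 are expressed in these cells, and the part of the markers in their values was not tested. Of 6 neuron markers 1 was called higher in knockouts, and of 6 microglia markers 1 was called lower. Of 8 glucocorticoid-responsive genes Fkbp5 alone was called, with a rise of 0.65 (SE 0.12, adjusted p = 0.0107), from 1255 ± 238 to 2023 ± 693 (SD, n = 6 each). At an unadjusted p under 0.05 (limma) 3 of the 8 were higher, Fkbp5 among them, and 1 was lower. Tsc22d3 of this list had a mean of 1461 in KO-Mem and 2185 in WT-Mem mice. All KO-Mem mice lay below all WT-Mem mice for it, as for 13.5% of genes. Without KO-Veh mouse 3 and KO-Mem mouse 1 the Fkbp5 difference was 0.49 (adjusted p = 0.0522). KO-Mem mouse 1 was singled out for its high Fkbp5 level, so the smaller difference was in part fixed by that choice. Klf9, which also responds to glucocorticoids, overlapped between groups. Of 5 blood markers 4 hemoglobin genes fell, and the sum was 13301 to 26320 in wild types and 5626 to 18764 in knockouts.

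The members varied together only in part. Over the 12 mice the correlation of log2 values was -0.78 between Thra and Thrsp, -0.70 between Thra and Dio2, 0.69 between Hr and Thrsp and 0.63 between Hr and Thrb, while Klf9 had none above 0.11 or below -0.37 with any other member. These values share the 4 groups and are descriptions. Among 14233 genes with a mean of at least 50, the genes most like Hr over the 12 mice were Paqr4 (Pearson r 0.96), Tnfrsf25 (0.94), Wars (0.92), Rflnb (0.91) and Col9a3 (0.91). The low KO-Mem level that chose Hr enters this ranking. With the group means removed, these 5 genes had r of 0.49 (Col9a3) to 0.74 (Tnfrsf25). When the group means were removed first, the 5 genes most like Hr were Zc3h10, Gm43860, B230217O12Rik, Lpar2 and Phldb2 (r 0.88 to 0.92), none of which was on the former list.

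The genes most like Thra were Rasgrf1 (r 0.97), a Ras exchange factor of neurons, Eml2 (0.97) and Ggact (0.97), and with the group means removed these 3 still had r of 0.89 to 0.92. Those most like Thrb were Ttll11 (0.95), Sorl1 (0.91) and Hltf (0.90). Thrsp was most like Smpd1 (0.96), which encodes acid sphingomyelinase, Mapk8ip1 (0.95) and D8Ertd738e (0.94). Dio2 was most like Katnal2 (0.92), Mafg (0.91) and Abhd6 (0.91), Dio3 like Zmpste24 (0.88), Mrrf (0.88) and Glp1r (0.82), Slco1c1 like Col11a1 (0.93), Gng12 (0.92) and S100a13 (0.90), and Klf9 like Gm43080 (0.93), Fkbp15 (0.88) and Tedc1 (0.87).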

How the data were processed

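The 12 libraries were made from poly-A RNA (TruSeq, with strand marking not stated in the methods), and each mouse is 1 library. Per the labels and methods, the authors estimated transcript abundance with Salmon 1.1.0 on GRCm38 and divided gene-level counts by DESeq2 normalization factors (DESeq2 1.26.0 and R 3.6.2 in the submitters' processing notes). The deposited values are this normalized count signal, not whole reads: 26.4% of values under 20 were whole multiples of 1 read within 0.05, so no count model was run. The gene filter and annotation release are not given in the sources used here. Symbols and positions were taken from GENCODE M21 (19295 of 19312 genes matched).

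Values were tested as log2(value + 1) with limma 3.58.1 (R 4.3.3; eBayes with trend) over all genes whose mean in the fitted mice was at least 10, with Benjamini-Hochberg adjustment over those genes. Each 2-group comparison used its 6 mice. Differences over both treatments, over both genotypes and interactions used 12. Fold changes on this scale understate those of low genes. The fit was run on simulated counts with the same dispersion for every gene, which was not estimated from these data. That run checks the code and does not measure the power of 3 mice per group. Members and gene lists were chosen with earlier results of these data known. Besides the members, genes were named if called, otherwise the gene with the smallest p of a list, and Nr1d1, Dio3os and Shank2 always; genes most like a member were the top 5 for Hr and the top 3 for the rest. Agbl3, Aldh1a3, Mbp, Trh, Pomc and Tsc22d3 were named after their values were seen. Some genes of the lists are not reported here. Intervals between mice include biological and technical spread, and sums per library were made near equal by the scaling, so absolute depth is unknown.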

Additional observations from a re-analysis of the deposited data

How the results depend on the processing

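The alternatives were a pseudocount of 5 or 0.5, no minimum or a minimum mean of 50, all 12 mice in one fit, 2 other scalings, no variance trend, the replicate block, an exact permutation test and leaving out each mouse. edgeR and DESeq2 were not run, because the values are not whole reads. Of the results for single genes under all alternatives, 1003 kept direction and call, 65 lost the call, 10 gained one and 35 changed sign, none of them called, and 2 values of Hr, which has no test there, moved by more than their SE. In Mem-K/W 1 member (Thra) was called with all 12 mice in one fit, where 636 of 17655 genes were called. Between KO-Mem and WT-Veh mice 0 members were called with no variance trend and 0 without KO-Veh mouse 3 and KO-Mem mouse 1, and over both treatments 0 were called without those 2 mice; the cause was not tested. Without a mouse, 0 to 3 members were called in Mem-K/W, 0 to 2 between KO-Mem and WT-Veh mice and 1 to 3 over both treatments, and 0 in every other comparison. The 3 in Mem-K/W were Dio2, Thra and Thrsp, called without KO-Mem mouse 3. That fit called 1911 of 17633 genes, instead of 12 of 17646 with all mice. Over all genes, leaving out 1 mouse gave 1 to 2490 calls between KO-Mem and WT-Veh mice and 528 to 3263 over both treatments. Upper quartile scaling turned Thrb over both genotypes to -0.0091 and Thrsp between WT-Mem and WT-Veh to -0.0047. Without KO-Veh mouse 3 and KO-Mem mouse 1, Klf9 turned to -0.016 over both treatments, Thrb to -0.059 over both genotypes and Slco1c1 to 0.053 between KO-Mem and KO-Veh mice. With no variance trend the genotype contrast called 670 genes instead of 1856.

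Leaving out 1 mouse also turned signs. Klf9 ranged from -0.0065 to 0.081 in Veh-K/W, -0.074 to 0.028 in Mem-K/W, -0.019 to 0.060 between KO-Mem and KO-Veh mice and -0.017 to 0.036 over both treatments. Between KO-Mem and KO-Veh mice Dio2 ranged from -0.16 to 0.23, Dio3 from -0.28 to 0.044 and Thrsp from -0.11 to 0.027. Between WT-Mem and WT-Veh mice Dio3 ranged from -0.21 to 0.12, Thrb from -0.022 to 0.15 and Thrsp from -0.13 to 0.092. Over both genotypes Dio3 ranged from -0.16 to 0.0067, Thrb from -0.043 to 0.046 and Thrsp from -0.094 to 0.019.

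The replicate numbers of the labels did not pair the mice, as the correlations of deviations between same-numbered mice were -0.175 to 0.080. With the replicate block 3 members were called over both treatments (Thra, Thrb and Thrsp, adjusted p = 0.0137, 0.0214 and 0.0272), and the genotype contrast called 1728 genes and 7 of the 15 genes raised by T3, while Ncor1 lost its call (adjusted p = 0.0631).

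The number of mice limits the precision. The lowest gene, Dio3, had an SE of 0.16 over both treatments.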
